A study of Mus musculus with 3 samples.

Results

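The immunity-related GTPases (IRGs) and guanylate-binding proteins (GBPs) are families of large GTPases that mouse cells make in quantity after exposure to interferons. Here 10 of their genes were followed: Igtp, Irgm1, Irgm2, Iigp1, Tgtp1 and Tgtp2 of the IRG family, and Gbp2, Gbp3, Gbp6 and Gbp7 of the GBP family. They were taken by a rule on names alone, as the rows of the gene and transcript tables whose GENCODE M21 gene name is 1 of these 10, which gave 10 of 55536 genes and 33 of 141862 transcripts. Polyadenylated RNA was sequenced from regulatory T cells (Tregs) of an adult male mouse aged 6 months. The strain, Foxp3CreERT2 x Rosa26YFP, joins a tamoxifen-inducible Cre recombinase driven from the Treg gene Foxp3 to a fluorescent reporter in the Rosa26 locus. By their label these Tregs went through inflammation, and they are the 1 group of the data. The 3 libraries are technical replicates of 1 biological replicate, named library 1, 2 and 3 after their technical replicate numbers, so the spread between them and every p-value given here says nothing of the spread between animals.

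IRG proteins act against bacteria and parasites that live inside vacuoles. The GKS proteins, named for the lysine in their nucleotide-binding loop, load onto the vacuole and damage it, while the GMS proteins, with a methionine in that place, sit on the cell's own membranes and keep the GKS proteins inactive there. GBPs carry lipid anchors or assemble with partners that do, coat the same vacuoles and free bacteria, and help caspases sense bacterial products. Transcription of both families is driven through the palindromic GAS element, which is bound after interferon-gamma, and through the interferon-stimulated response element (ISRE), which IRF1 and other interferon regulatory factors bind.

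The promoters of the genes are shown first because they carry the letters of these elements. RefSeq promoter windows of 300 bases around the gene start, on GRCm38.p6, the assembly that mm10 names, were found for 8 of the 10 genes, with no entry for Iigp1 and Gbp6. The ISRE core was searched as GAAA, any 2 bases and GAAA, and the GAS core, a palindrome, as TTCNNNGAA, on both strands, where N is any base and matches may overlap. An ISRE core was present in 1131 of 32851 windows in the table, or 3.44%, and in 8 of the 8 genes. A GAS core was present in 2726 windows, or 8.3%, and in 5 of the 8 genes: Igtp, Irgm2, Tgtp1, Tgtp2 and Gbp7. A match is a description of letters and not a measured binding site.

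In 4 IRG genes the GAS core stood 2 bases before the ISRE core. The stretches run 5′ to 3′ on the strand of the gene, with the letters of both cores in capitals. They lie at chr11:58199499-58199543 (Igtp, + strand), chr11:58214890-58214934 (Irgm2, + strand), chr11:48992302-48992346 (Tgtp1, - strand) and chr11:49064261-49064305 (Tgtp2, - strand).
Igtp: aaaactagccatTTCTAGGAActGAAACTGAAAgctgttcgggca
Irgm2: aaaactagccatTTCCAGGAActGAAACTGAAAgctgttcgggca
Tgtp1: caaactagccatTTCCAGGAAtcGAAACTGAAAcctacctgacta
Tgtp2: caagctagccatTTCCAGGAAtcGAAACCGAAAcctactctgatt

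The ISRE core began 34 bases before the RefSeq gene start in Igtp (-34), and at -64 in Irgm2, -77 in Tgtp1 and -70 in Tgtp2. The joined pattern, a GAS core, any 2 bases and an ISRE core, was looked for in all windows after these stretches had been seen. It was present in 5 of the 32851 windows (0.0152%), those of these 4 genes and of Gm12185, an IRG relative whose annotated span overlaps Tgtp1.

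The other 4 genes with a window had ISRE cores in other settings, shown for contrast at chr11:48871429-48871456 (Irgm1, - strand), chr3:142620598-142620619 (Gbp2, + strand), chr3:142559993-142560020 (Gbp3, + strand) and chr3:142530218-142530304 (Gbp7, + strand). Capitals again mark the letters of the cores. In the GBP genes the ISRE core lies on the opposite strand and reads here as TTTC, any 2 bases and TTTC.
Irgm1: tttcaaGAAATAGAAACCGAAActgatt
Gbp2: ttttagTTTCACTTTCactgtc
Gbp3: acacagTTTCAGTTTCTATTTCccagat
Gbp7: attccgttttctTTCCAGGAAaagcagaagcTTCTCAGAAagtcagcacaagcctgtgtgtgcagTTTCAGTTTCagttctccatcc

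Irgm1 and Gbp3 each held 2 overlapping ISRE cores, at -30 and -24 in Irgm1 and at -45 and -39 in Gbp3. Gbp3 had a further window at a later start, without a match. Gbp7 held 2 GAS cores, at -106 and -87, before its ISRE core at -53. The stretches of Irgm1 and Gbp2 overlap exons of GENCODE transcripts that begin before the RefSeq start. Of 8 other family genes with a window, 5 had an ISRE core and 3 a GAS core. Relatives on chromosome 18, where Iigp1 lies, were left out of this count.

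The gene tables held 11829501, 14136139 and 10667765 estimated counts in libraries 1, 2 and 3. The libraries differed in more than depth, although all are labelled as technical replicates of the same cells. Over all genes, a Poisson chi-square test of equal shares between the libraries called 6388 of the 13970 genes tested at a Benjamini-Hochberg adjusted p of 0.05. Treg and T cell markers were present in every library, with Foxp3, which defines Tregs, at 18.0, 14.3 and 16.0 TPM (estimated reads divided by effective length and scaled to a common total per library). The summed level of 6 Treg markers was 1903, 1710.5 and 2018 TPM, lowest in library 2. Ikzf2, Il2ra, Ctla4 and Tnfrsf18 were called and lowest there. Tigit (658, 686 and 709 TPM) was called but highest in library 2 by TMM scaling of the library sizes, and lowest in library 1. Foxp3 did not pass that Poisson chi-square test (adjusted p = 0.117). Library 2 had the highest summed level of 9 macrophage and monocyte markers (9.96, 60.6 and 25.0 TPM), with 5 of the 5 tested called and highest there, 2 of 9 detected in every library, Fcgr1 at 0 in library 1 and C1qa at 0 in library 3. It also had the highest sum of 5 NK cell markers (10.3, 46.2 and 15.3 TPM), with 3 of the 4 tested called and highest there, beside 15.5% of all genes tested. Klrb1c (0.56, 0.26 and 1.67 TPM) was instead called, highest in library 3 and lowest in library 2. Ncr1, with 6, 4 and 2 counts, was not tested. The sum of 4 neutrophil markers was also highest in library 2 (0.12, 8.23 and 3.17 TPM), but 0 of 4 were detected in every library and 1 was tested. S100a8 and S100a9 were at 0 in library 1, and Ly6g and Retnlg at 0 in library 2. Library 3 was highest for 5 erythroid markers (4.83, 51.2 and 286 TPM) and 7 B cell markers (461, 706 and 889 TPM). The part of these other cells in the results on the GTPase genes was not tested. In RNA from bulk cells, fewer cells of a type and less RNA per cell cannot be told apart.

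All 10 genes were detected, meaning 1 TPM or more in all 3 libraries, as were 12470 of 55536 genes (22.5%). Their summed level was 1265, 1443 and 1259.9 TPM in libraries 1, 2 and 3, with a mean of 1322 ± 104 (SD, n = 3), or 0.128%, 0.145% and 0.127% of the TPM of all genes. The median of the 10 mean levels was 131.9 TPM, against 15.6 TPM for detected genes. By mean TPM the order was Tgtp2, Igtp, Gbp7, Tgtp1, Irgm1, Iigp1, Gbp6, Gbp2, Gbp3 and Irgm2. Along this order the ranges over the libraries overlapped between Gbp7 and Tgtp1, between Tgtp1 and Irgm1 and between Irgm1 and Iigp1, so the ranges did not separate these neighbours. No other neighbours overlapped. Within single libraries the same order held, except that Iigp1 stood above Irgm1 in library 1 and Tgtp1 above Gbp7 in library 3. Tgtp1 was thus above Irgm1 in every library, although their ranges overlapped.

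**Figure D1:**
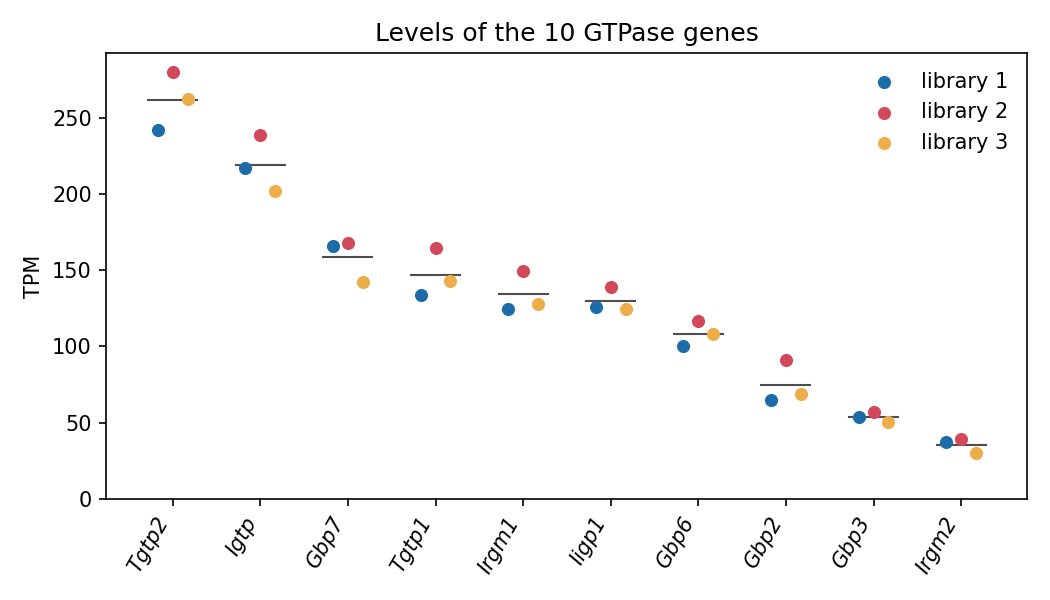
Level of each of the 10 genes in TPM (linear axis from 0), with 1 point for each library and a bar at the mean of the 3. Tgtp2 lies between 242 and 279.9 TPM, Irgm2 between 30.1 and 39.4 TPM, and the point of library 2 is the highest for each gene.

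Among the GMS proteins, which guard the cell's own membranes, Igtp (chr11:58199556-58207591, + strand, ENSMUSG00000078853.8) had the highest level. Igtp, also called Irgm3, is found at the endoplasmic reticulum and on lipid droplets, and was at 217, 238 and 202 TPM in libraries 1, 2 and 3 (mean 219 ± 18.3, n = 3). Irgm1 (chr11:48861968-48871683, - strand, ENSMUSG00000046879.7), needed for resistance to mycobacteria, was at 125, 149.7 and 128 TPM (mean 134 ± 13.6, n = 3). Irgm2 (chr11:58199618-58222782, + strand, ENSMUSG00000069874.7), found at the Golgi, was at 37.6, 39.4 and 30.1 TPM (mean 35.7 ± 4.92, n = 3). In all 3 libraries Igtp was above Irgm1 and Irgm1 above Irgm2, without overlap of the ranges. On the log2(TPM + 0.1) scale Igtp exceeded Irgm1 by 0.71 ± 0.08 and Irgm2 by 2.62 ± 0.11 (mean difference ± SD over libraries), the latter a 6.15-fold difference.

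The GKS proteins, which act at the vacuole, summed to 501, 583 and 530.3 TPM, above the GMS genes at 379, 427 and 360.1 TPM in each library. Tgtp2 (chr11:49057194-49064206, - strand, ENSMUSG00000078921.3) and Tgtp1 (chr11:48985327-48994172, - strand, ENSMUSG00000078922.9) both encode the T-cell specific GTPase, also known as Irgb6. Tgtp2 was at 242, 279.9 and 262 TPM (mean 261 ± 19.0, n = 3), and Tgtp1 at 134, 165 and 143 TPM (mean 147 ± 15.9, n = 3). Iigp1 (chr18:60376027-60392634, + strand, ENSMUSG00000054072.12), the IRG protein known as Irga6 that coats the vacuole of Toxoplasma, was at 126, 139 and 125 TPM (mean 129.7 ± 7.81, n = 3). The 3 GKS genes were thus among the 6 highest of the 10 genes, with Tgtp2 above all others in each library.

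The GBP genes summed to 385, 432 and 369.6 TPM. Gbp7 (chr3:142530342-142550149, + strand, ENSMUSG00000040253.15) had the highest level of the 4, at 166, 168 and 142 TPM (mean 159 ± 14.1, n = 3). Gbp6 (chr5:105270702-105293698, - strand, ENSMUSG00000104713.4), which belongs to the GBP cluster of chromosome 5, was at 100.1, 117 and 108 TPM (mean 108 ± 8.33, n = 3). These 2 genes did not overlap each other in level. Gbp2 (chr3:142620602-142638008, + strand, ENSMUSG00000028270.12), a prenylated protein that coats vacuoles, was at 65.0, 91.0 and 68.7 TPM (mean 74.9 ± 14.1, n = 3). Gbp3 (chr3:142560026-142573209, + strand, ENSMUSG00000028268.14), encoded beside Gbp2 and Gbp7 in the cluster of chromosome 3, was at 53.7, 56.7 and 50.7 TPM (mean 53.7 ± 3.03, n = 3). Relative to its mean TPM, Gbp2 had the largest SD of the 10 genes (18.8%), with library 2 well above the other two, and Gbp3 the smallest (5.63%).

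The differences of 9 pairs of these genes, fixed by copy, neighbourhood or subfamily, kept their sign in every library. Gbp7 exceeded Gbp3 by 1.56 ± 0.07 and Gbp2 by 1.09 ± 0.24 on the log2(TPM + 0.1) scale. Each pair had a p of 0.25 in the exact two-sided sign-flip permutation test, also after Benjamini-Hochberg adjustment over the 9, which is the smallest p that 3 libraries allow. The design therefore cannot bring a pair past 0.05.

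Library 2 held the highest value of every one of the 10 genes. All 10 differed between the libraries at an adjusted p under 0.05 in the Poisson chi-square test, beside 45.7% of all genes tested, and all 10 were highest in library 2, beside 15.5% of all genes tested that were called and highest there (14.0% in library 1 and 16.2% in library 3). Genes with many reads are called more often, and of 1939 genes with mean counts in the range of the 10 genes, 1167 to 6174 counts, 71.1% were called and 30.6% were called and highest in library 2. The 10 genes were highest in library 2 after scaling by TMM, by DESeq2 size factors, by total counts and in TPM, and 7 of 9 were so in the deposited whole-number counts, where Tgtp2 was highest in library 3 and Gbp7 in library 1. With no test applied, TMM scaling put 32.3% of all genes tested highest in library 2, and the other scalings from 24.7% to 37.0%. The lowest value by TMM scaling lay in library 1 for 4 of the 10 genes, beside 31.7% of all genes tested, and in library 3 for 6, beside 37.3%.

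Gbp2 differed most, with 1440 estimated counts in library 1, 2380 in library 2 and 1406 in library 3. After TMM scaling its level in library 2 was 1.41-fold that in library 1 and 1.35-fold that in library 3 (chi-square per degree of freedom 68.0, a measure whose mean is 1 under pure counting noise, Benjamini-Hochberg adjusted p = 1.33e-28). The ratio of library 3 to library 1 was 1.05. Gbp7 had 6018, 7553 and 4949.8 counts and was 1.07-fold higher in library 2 than in library 1 and 1.21-fold higher than in library 3 (adjusted p = 7.12e-24). Here library 3 was the low one, and the same held for Igtp (3834, 5072 and 3244 counts, 1.13-fold and 1.24-fold, adjusted p = 1.41e-20) and Irgm2 (1164, 1479 and 858 counts, 1.08-fold and 1.37-fold, adjusted p = 1.21e-11).

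Irgm1 had 2405, 3487 and 2261 counts, 1.24-fold higher in library 2 than in library 1 and 1.23-fold higher than in library 3 (adjusted p = 3.03e-18). Tgtp1 had 1583, 2242 and 1460.3 counts and followed the same pattern, at 1.21-fold and 1.22-fold (adjusted p = 3.08e-10). In both of these genes library 2 stood apart, and the ratio of library 3 to library 1 was 1.01 in Irgm1 and 0.988 in Tgtp1. Tgtp2 had 4730.1, 6321 and 4683 counts and the smallest ratio of highest to lowest library of the 10, 1.14-fold (adjusted p = 9.00e-10). Gbp3 had 1278, 1631 and 1108 counts in libraries 1, 2 and 3, and its adjusted p of 0.000893 (1.17-fold from highest to lowest) was the largest of the 10 under counting noise alone. With the posterior SD, the deposited uncertainty of the split of shared reads, added to the variance, the largest was that of Tgtp1, at 0.0241, with its chi-square per degree of freedom down from 24.5 to 4.77. That of Tgtp2 went from 23.4 to 9.86, and Gbp3 then stood at 8.20. Iigp1 and Gbp6 both had a ratio of highest to lowest of 1.19, with chi-squares per degree of freedom of 24.9 and 26.5. Over the 10 genes the median ratio of highest to lowest library was 1.22, beside 1.14 for the genes in the same range of counts, and the median chi-square per degree of freedom was 27.2, beside 8.46 for those genes and 3.28 for all genes tested.

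**Figure D2:**
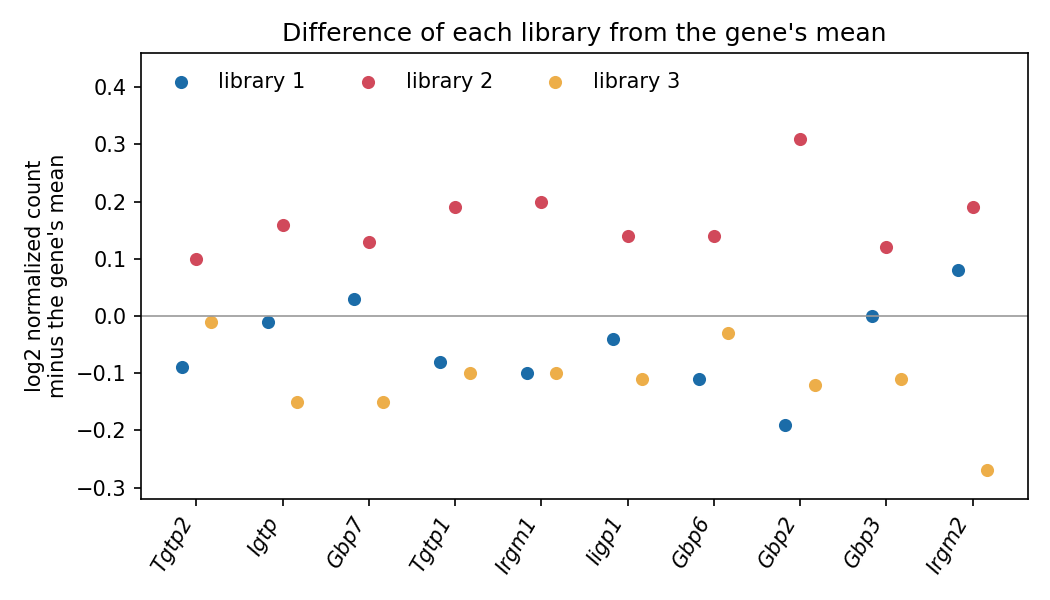
Difference of each library from the mean of the gene, in log2 normalized counts (TMM), for the 10 genes in the order of their mean TPM. The points of library 2 lie between 0.10 and 0.31 above the mean for all 10 genes, and those of libraries 1 and 3 change places from gene to gene.

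Of the 10 calls, 6 were lost when library 2 was left out. With library 1 left out, 10 of the 10 genes were called, beside 34.0% of all genes tested. Without library 2, 4 of the 10 genes (Igtp, Irgm2, Tgtp2 and Gbp7) still differed between libraries 1 and 3, beside 30.7% of all genes tested in that way. The adjusted p of the other 6 then ran from 0.129 (Gbp6) to 0.898 (Irgm1) in the same Poisson chi-square test. Without library 3, 8 genes were called (beside 21.3%), with Irgm2 and Gbp3 lost at an adjusted p of 0.135 and 0.0914. In the whole-number counts, which held 9 of the 10 genes by identifier (not Gbp6), 4 were called (Irgm1, Irgm2, Gbp2 and Gbp7), beside 21.5% of the genes of that table. Ratios between libraries were mostly smaller there, with Igtp in library 2 at 1.03-fold library 1 and 1.06-fold library 3, and Gbp7 at 0.984-fold and 1.10-fold.

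Near-identical copies limit how far the level of a single gene can be read, and the 2 Tgtp genes were the extreme case. The main transcripts, Tgtp1-201 and Tgtp2-201, matched at 2804 of 2810 aligned bases (99.8%), with a longest identical run of 1040 bases. Their coding sequences, of 1245 bases each, differed in 4 alignment columns. Coding bases 676 to 735 of the GENCODE M21 transcripts are shown because they hold 2 of these differences, marked in capitals, and show how few letters tell the reads apart.
Tgtp1-201: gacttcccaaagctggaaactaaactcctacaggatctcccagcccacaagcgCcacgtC
Tgtp2-201: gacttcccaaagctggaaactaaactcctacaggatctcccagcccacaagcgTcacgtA

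Effective lengths in the tables were 49 bases below the transcript length in 99.95% of transcripts, which corresponds to windows of 50 bases, and shared sequence was therefore counted in windows of 50 bases. Of the distinct windows of Tgtp1 transcripts, 81.2% were also in transcripts of another gene, 79.4% in Tgtp2. Of those of Tgtp2, 86.6% were also in another gene, and 85.8% were in Tgtp1. Gbp6 shared 70.7% of its windows, 65.0% with Gm43302, a gene that overlaps it on the same strand, and 45.9% with Gbp10, whose main transcript matched that of Gbp6 at 98.4% of aligned bases. Gbp7 (12.7%), Igtp (11.8%, with Irgm2), Irgm2 (7.83%), Gbp3 (3.75%), Gbp2 (2.03%), Iigp1 (1.69%) and Irgm1 (0.379%) shared far less.

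The deposited posterior SD of the count, a measure of how uncertain the split of shared reads was, was largest for the 3 genes with the most shared windows. It was 80.2, 92.7 and 79.4 reads for Tgtp1, or 5.06%, 4.14% and 5.44% of its count in libraries 1, 2 and 3. For Tgtp2 it was nearly the same in reads, 80.6, 93.3 and 79.9, which was 1.70%, 1.48% and 1.71% of its larger count. Gbp6 had 44.6, 57.7 and 42.2 reads (from 1.45% to 1.56% of its count). For the other 7 genes it stayed below 1%, with 6.21, 7.03 and 5.89 reads for Igtp and 0 in all libraries for Irgm1, while 23.8% of all genes tested were above 1%. Gm43302 was assigned 0, 87.1 and 0 counts with a posterior SD of 44.1, 60.6 and 41.3 reads, so it is uncertain whether it had reads of its own beside Gbp6.

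**Figure D3:**
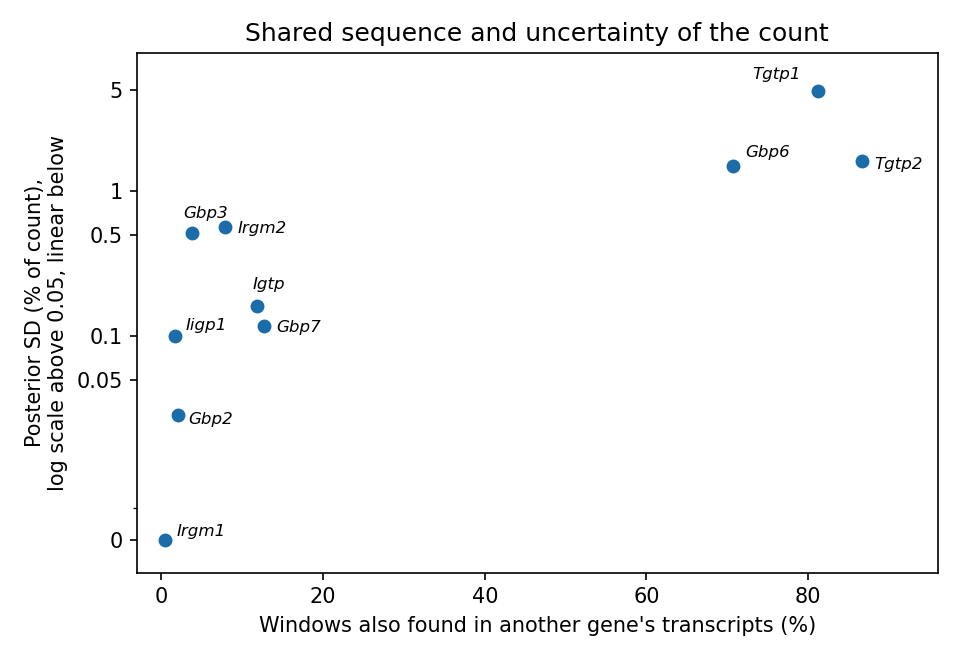
Share of distinct windows of 50 bases that also occur in transcripts of another gene (x axis, percent) against the posterior SD as a percent of the count, averaged over the 3 libraries (y axis, logarithmic above 0.05 and linear below), 1 point for each gene. Tgtp1, Tgtp2 and Gbp6 stand apart at 81.2%, 86.6% and 70.7% shared windows, and only these 3 lie above 1% on the y axis.

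Tgtp1 took 25.1%, 26.2% and 23.8% of the estimated counts of the Tgtp pair in libraries 1, 2 and 3, and 35.6%, 37.0% and 35.3% of their TPM. In the whole-number table the pair had 89 and 177, 120 and 208, and 66 and 179 counts for Tgtp1 and Tgtp2 in the 3 libraries. There Tgtp1 took 33.5%, 36.6% and 26.9%, so it was the lower copy in both tables. Those counts were 3.29% to 5.62% of the estimated counts of the same genes and libraries, where the median of all genes tested was 40.4% to 41.3% and Gbp2 had 51.3% to 56.3%. How that table treated reads with several positions is not given in the sources used here. Summed, Tgtp1 and Tgtp2 had 6313, 8563 and 6142 estimated counts, and the sum, which does not depend on the split within the pair, still differed between the libraries (chi-square per degree of freedom 42.3, Benjamini-Hochberg adjusted p = 1.11e-17). This sum was chosen after the data had been seen.

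The transcript tables showed where in each gene the reads were placed. Tgtp2-201, of 2810 bases, held 75.4%, 71.6% and 75.0% of the TPM of Tgtp2 (mean 74.0% ± 2.08, n = 3), and Tgtp2-202, a processed transcript of 370 bases without a coding frame, the other 26.0%. Because that transcript is short, it took only 3.66%, 4.41% and 3.74% of the counts of the gene. Tgtp1 had the reverse layout: Tgtp1-203, of 764 bases and annotated as protein coding, held 71.1%, 74.2% and 75.0% of its TPM from 38.8%, 42.5% and 43.6% of its counts. Of the long transcripts alone, Tgtp2-201 was at 182, 200.3 and 197 TPM and Tgtp1-201 at 38.6, 42.5 and 35.7 TPM. Counting only coding transcripts, Tgtp2 had a mean of 193 ± 9.51 TPM (n = 3), below Igtp at 219 TPM, so the first place of Tgtp2 depended on its processed transcript.

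Gbp6 was the other gene with a large share outside coding transcripts. Gbp6-201 held 62.0%, 64.3% and 63.3% of its TPM, Gbp6-203, annotated for nonsense-mediated decay, 29.9%, 26.4% and 25.5%, and Gbp6-202, with a retained intron, 8.12%, 9.31% and 11.2%. The coding part of Gbp6 was 68.5 ± 6.50 TPM (n = 3). Iigp1 was split between coding transcripts Iigp1-204 (44.0% ± 3.33, n = 3) and Iigp1-202 (39.8% ± 4.31, n = 3), with 10.1% and 6.12% in 2 processed transcripts. Together, transcripts of types other than protein coding held 9.40%, 10.2% and 10.2% of the TPM of the 10 genes.

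In the remaining genes the TPM lay almost wholly in coding transcripts. Gbp7 was shared by Gbp7-201, of 5614 bases (53.3% ± 2.91, n = 3), and Gbp7-202, of 2497 bases (46.7%). Irgm1-201 and Irgm1-202 took 50.3% ± 4.03 and 49.2% ± 3.79 (n = 3). Igtp-201 (87.3%), Gbp3-202 (93.2%) and Gbp2-201 (98.1%) dominated their genes. Irgm2 varied most: Irgm2-202 held 86.1%, 60.9% and 71.0% in libraries 1, 2 and 3, and Irgm2-203 the other 13.9%, 39.1% and 29.1%, lowest in library 1 and highest in library 2. The posterior SD of the count of Irgm2-203 was 87.5, 114 and 84.4 reads beside counts of 164, 586 and 253. Irgm2-201, the transcript whose annotation begins inside the span of Igtp, was at 0 in all 3 libraries, and in all 7 of the 33 transcripts were.

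**Figure D4:**
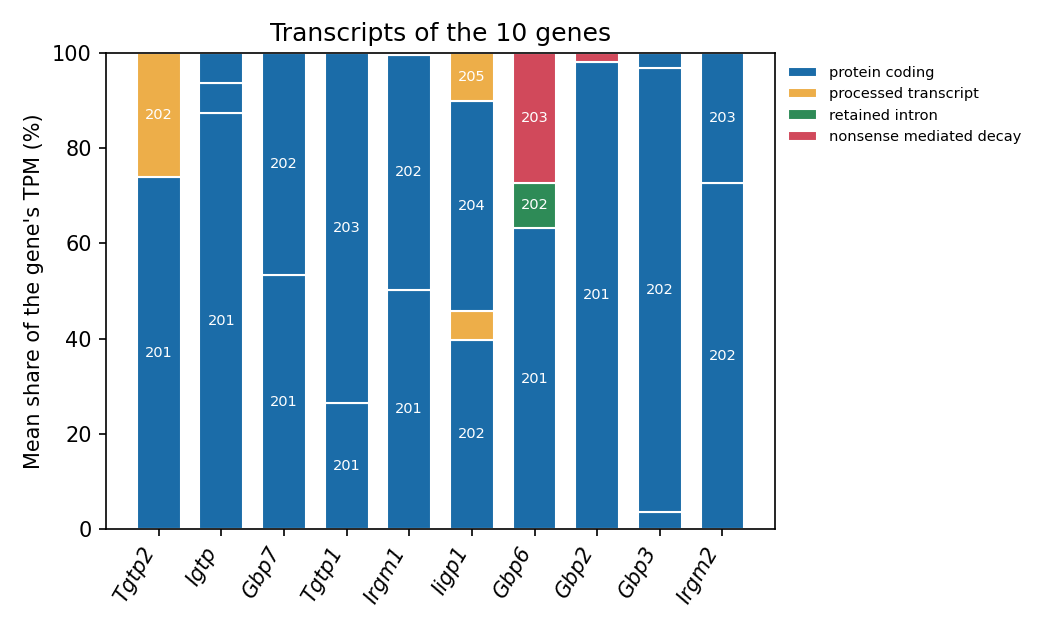
Mean share of the TPM of each gene held by its transcripts over the 3 libraries (stacked bars, percent from 0 to 100), coloured by annotated type, with the transcript numbers inside the larger segments. Gbp6 has 63.2% in its coding transcript and Tgtp2 74.0%, while Tgtp1, Gbp7, Igtp, Gbp3 and Irgm2 show coding types only.

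Other members of the 2 families were read from a list of 17 relatives, of which 7 were GBP genes and 10 IRG genes. Of all genes tested, 45.7% were called, and 14.0%, 15.5% and 16.2% were called and highest in library 1, 2 and 3. Of the 7 GBP relatives 5 were detected, 6 tested and 5 called in the Poisson chi-square test, with 4 highest in library 2 by TMM scaling (Gbp4, Gbp8, Gbp9 and Gbp10) and 1 in library 3 (Gbp2b), although Gbp9 was highest in library 3 by total counts and in TPM, and Gbp2b in library 2 in the whole-number counts. Gbp4, at 178, 184 and 163 TPM, had a higher mean (175 TPM) than any of the 4 GBP genes above. Gbp8 was at 58.6, 60.2 and 53.0 TPM, Gbp9 at 46.9, 52.6 and 54.2 TPM and Gbp10 at 16.2, 24.1 and 21.5 TPM. The posterior SD of Gbp10 was 22.9, 29.6 and 26.5 reads beside counts of 243, 412 and 280, and its call leaves this SD out. Gbp5, which in macrophages promotes inflammasome assembly, was at 9.04, 9.83 and 7.37 TPM, and did not pass the test (adjusted p = 0.149). Gbp2b was at 0.57, 0.54 and 1.72 TPM, and Gbp11, with 3.91, 7.63 and 5.01 counts, had too few reads to be tested.

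Of the 10 IRG relatives 7 were detected, 9 tested and 5 called, beside 45.7% of all genes tested. Of the 5 called relatives, 0 were highest in library 2 by TMM scaling, by DESeq2 size factors, by total counts or in TPM. By TMM scaling 15.5% of all genes tested were called and highest there. Gm12250, which encodes Irgb10, a GKS protein that disrupts bacterial membranes, was at 86.5, 81.4 and 68.7 TPM (adjusted p = 4.95e-06), highest in library 1. The tandem IRG pair 9930111J21Rik1 (107, 96.5 and 103 TPM) and 9930111J21Rik2 (99.9, 94.1 and 85.5 TPM) shared 83.2% and 59.8% of their windows with other genes. Under counting noise alone, 9930111J21Rik2 was called in the Poisson chi-square test and highest in library 1 (adjusted p = 0.000278). Its posterior SD was 119, 130 and 86.4 reads beside counts of 3605, 4161 and 3040, and that call leaves this SD out. Gm4841 (8.05, 6.43 and 5.83 TPM) was also highest in library 1, and Gm4951 (8.72, 8.77 and 11.9 TPM) and Gm12185 (2.47, 2.39 and 4.70 TPM) in library 3, Gm12185 in library 2 by the whole-number counts. F830016B08Rik (13.1, 13.6 and 15.0 TPM), Gm5431 (0.72, 0.47 and 0.83 TPM) and Irgq (0.99, 0.96 and 1.10 TPM) did not pass the test, and Irgc1 had 0, 2 and 1 counts. No test compared the 10 genes with these relatives.

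**Figure D5:**
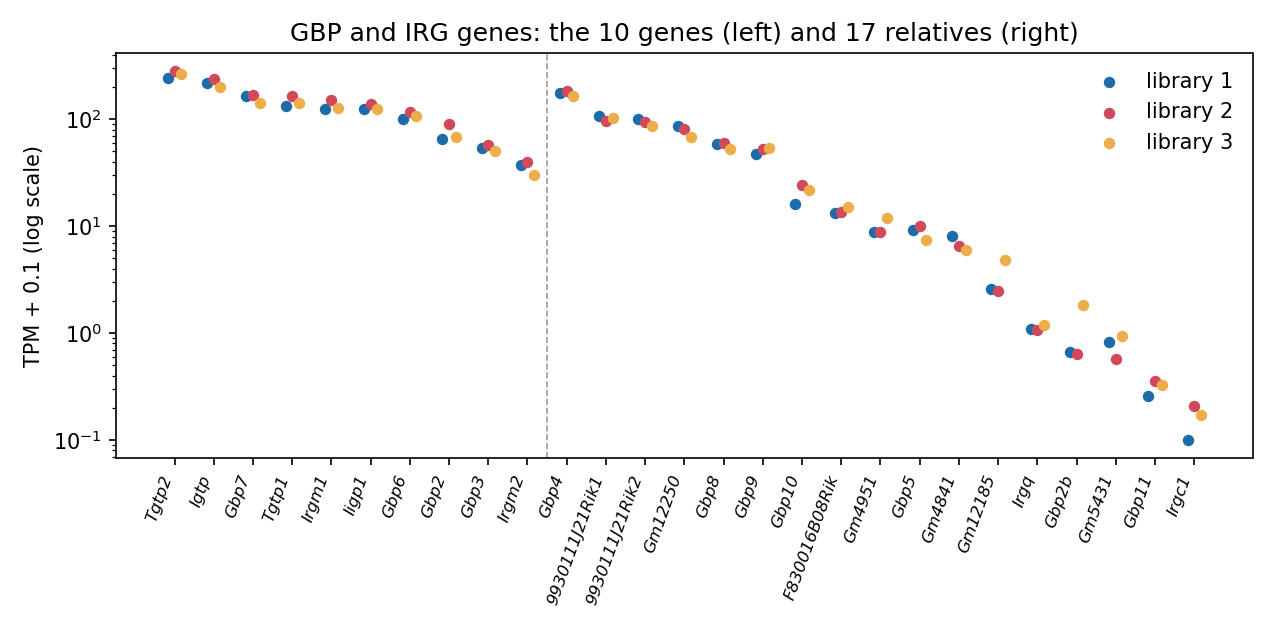
TPM plus 0.1 (log scale) of the 10 genes, left of the dashed line, and of the 17 relatives, right of it, with 1 point for each library. Gbp4 at a mean of 175 TPM lies among the highest of the 10, while Irgc1, Gbp11 and Gm5431 lie below 1 TPM in all libraries.

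Among the genes that carry the signal of interferon-gamma, all 10 of the list were detected and 8 of 10 were called, 6 highest in library 2 and 2 in library 3 in the estimated counts. Of all genes tested 45.7% were called, and 15.5% were called and highest in library 2. Among genes with mean counts in the range of the 10 GTPase genes these shares were 71.1% and 30.6%. Ifng, the ligand, was at 28.6, 57.1 and 38.5 TPM, highest in library 2 by every scaling (adjusted p = 2.32e-31). Ifngr1, the ligand-binding chain of the receptor, was at 314, 315 and 287 TPM (highest in library 1 in the whole-number counts), and the kinase gene Jak1 at 217, 252 and 210.5 TPM. Irf1, whose product binds the ISRE, was at 197, 217 and 189 TPM, also highest in library 2 (adjusted p = 1.90e-15).

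The type I interferon list had 7 of 7 detected and 3 of 7 called, beside 45.7% of all genes tested. All 3 of those called (Irf9, Irf7 and Usp18) were highest in library 2, beside 15.5% of all genes tested that were called and highest there. With no call required, 4 of the 7 were highest in library 2 and 3 in library 1 by TMM scaling. Irf9 was at 87.3, 95.4 and 83.4 TPM and Irf7 at 56.3, 76.0 and 67.0 TPM, while Ifnar1, a chain of the type I receptor, was at 53.3, 48.7 and 43.1 TPM and did not pass the test (adjusted p = 0.180). Of 10 other genes that interferon-gamma induces, 9 were tested and 8 called, beside 45.7% of all genes tested. Of these 8 genes, 5 were highest in library 2 and 3 in library 3 by TMM scaling. Over all genes tested, 15.5% were called and highest in library 2 and 16.2% in library 3. The immunoproteasome genes Psmb8 (775, 815 and 741 TPM) and Psmb9 (300.4, 321 and 271 TPM) were highest in library 2 in the estimated counts but in library 3 in the whole-number counts. Tapbp, which encodes the peptide-loading protein tapasin (345, 341 and 317 TPM), was highest in library 2 by TMM scaling but in library 1 by total counts and in TPM.

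The other interferon-induced GTPases and the partners of the families were highest in different libraries. Of 4 Mx and very large inducible GTPase genes 3 were called, beside 45.7% of all genes tested. Gm4070 (133, 141 and 107 TPM) was highest in library 2 and Gvin1 (74.1, 63.0 and 59.7 TPM) in library 1. In the whole-number counts Gvin1 was instead highest in library 2 and lowest in library 1. The reads of these 2 genes were hard to split, with posterior SDs of 383, 346 and 280.3 reads for Gvin1 and 383, 345 and 279.7 for Gm4070. Their calls rest on counting noise alone and leave this SD out. Mx1, whose product acts against influenza virus, was at 6.98, 8.58 and 9.72 TPM, highest in library 2 by TMM scaling and in library 3 in TPM.

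The conjugation system that places LC3 and GABARAP proteins on membranes is required for GBPs and GKS proteins to reach vacuoles. Of its 10 genes 10 were detected and 4 called, beside 45.7% of all genes tested. Of these 4 genes, 2 were highest in library 2 and 2 in library 3 by TMM scaling. Map1lc3b was at 365, 371 and 362 TPM, Gabarap at 299, 306 and 334 TPM and Gabarapl2 at 234, 228 and 229 TPM, the last without passing the test (adjusted p = 0.114). Of 9 ubiquitin and inflammasome partners 4 were called, again beside 45.7%, with 1 highest in library 1, 1 in library 2 and 2 in library 3 by TMM scaling. Pycard, the inflammasome adaptor, was at 381, 323 and 298 TPM, highest in library 1 (adjusted p = 1.76e-19), and Casp1 at 128, 121 and 131 TPM did not pass the test (adjusted p = 0.642). Casp4, whose product senses lipopolysaccharide, was at 87.4, 72.8 and 86.1 TPM, lowest in library 2 (adjusted p = 0.00125). The prenylation list, of enzymes that attach lipid anchors or act on the anchored proteins, had 1 of 5 called, beside 45.7% of all genes tested. This was Fnta at 28.6, 41.3 and 32.8 TPM, highest in library 2 (adjusted p = 0.0122). Rce1 was at 31.5, 32.9 and 34.1 TPM and Pggt1b at 21.6, 19.3 and 20.5 TPM, neither past the test.

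The genes whose pattern over the libraries lay nearest to that of Tgtp2, among 845 genes tested with a mean TPM within 2-fold of it, were Uqcrc2, Arf1 and Rhoa. Likeness was measured as the root mean square difference of centred log2 CPM over the 3 libraries, which was 0.00444 for Uqcrc2, 0.00598 for Arf1 and 0.0109 for Rhoa, beside a median of 0.0994 over the 845. Uqcrc2 was at 173, 203 and 189 TPM. With 3 libraries such a ranking rests on 3 points from 1 biological replicate. Of the other GTPase genes Gbp6 was nearest (0.0301), Tgtp1, the near-identical copy, was at 0.0758, and Irgm2 was farthest (0.186).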

How the data were processed

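The rule for the 10 genes uses names only, but the members, the lists and the pairs were chosen with earlier results of these data known. Per the file headers, the gene and transcript tables hold estimated counts in RSEM's column layout, in which a model divides the reads that map to several places, TPM made by the authors from count and effective length, and the percent of a gene's TPM that each transcript takes. The same deposited tables give the posterior SD of the count, a signal in reads. They rest on mm10 and GENCODE M21, and a further table of whole-number counts per gene, as deposited, on GENCODE M4, per the descriptions deposited with each library. For the aligner, tool versions, read length and strand setting the sources used here give nothing.

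Estimated counts were rounded. A single group leaves edgeR's quasi-likelihood test without a contrast. Libraries were instead compared by a chi-square test of equal shares under Poisson noise, with library sizes adjusted by TMM (edgeR 4.0.16, R 4.3.3). It ran over 13970 genes whose mean count reached 10, with Benjamini-Hochberg adjustment over all of them. TMM factors were 0.995, 0.976 and 1.03. The test treats reads as independent, which PCR copies are not. The test was checked on counts simulated with Poisson noise, the noise it assumes, so the check cannot show how it behaves with PCR copies. It recovered 46.0% of simulated 1.25-fold changes and 86.0% of 2-fold changes, and called 0.0436% of unchanged genes. Pairs used exact sign-flip permutation tests. Named are the 10 genes, all relatives, up to 3 genes of each other list by mean TPM, and the 3 most like Tgtp2; genes named besides these (Ifng, Irf1, Usp18, Gm43302 and marker genes) were chosen after their values were seen. The 3 tables of each library were read with Python 3.11.15, and alternatives used DESeq2 1.42.0 size factors. Proteins were not analysed here, and 1 gene of the lists is not reported here.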

Additional observations from a re-analysis of the deposited data

How the results depend on the processing

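The number of genes that differed between libraries was 6388 and lay between 2971 and 4797 with 1 library left out, fewest without library 3, and the number among the 10 GTPase genes lay between 4 and 10, fewest without library 2. The whole-number counts called 2157 genes and 4 of the GTPase genes; that table has fewer reads and fewer genes tested, and its ratios between libraries also differed (Igtp in library 2 was 1.06-fold library 3, against 1.24-fold), and the cause was not tested. In CPM, which ignores length, the summed levels were 644 for the GMS genes, 814 for the GKS genes and 1014.5 for the GBP genes, so the GBP genes then stood highest, where in TPM they were close to the GMS genes. DESeq2 size factors, total counts, no filter on low counts and an added posterior SD each left 10 of 10 genes called, the last with Tgtp1 at an adjusted p of 0.0241. No pair changed its sign. With the replaced settings 78 comparison values stayed the same and 7 moved, and of the values for single genes and transcripts 209 stayed, 22 moved and 13 lost their call; the cause was not tested. The posterior mean TPM was lower for all 10 genes, at 189 for Igtp and 225 for Tgtp2. No paired comparison of groups was possible because there is 1 group. Depth limits genes such as Gbp11, which had too few reads to be tested, and Irgc1, which was at 0 counts in library 1. A gene at 0 counts may have had up to 3, or 0.254, 0.212 and 0.281 CPM in libraries 1, 2 and 3. The TPM scale for the count of genes highest in library 2 and the sum of Tgtp1 and Tgtp2 were added after the data had been seen.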
